A study of Bos taurus with 12 samples.

Results

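The first-registered bovine miRNAs of the longissimus muscle were the features whose miRBase identifier begins with MI0004 or MI0005, the lowest-numbered bovine entries in the table. They were chosen by identifier, with at least 1 value other than 0, and MI0005063 (bta-miR-122) and MI0005011 (bta-miR-142) were left out. The 106 members are part of 2712 features listed and of 431 miRBase features that vary between libraries. Their identifiers fall in 3 stretches, with 31 members from MI0004731 to MI0004763, 56 from MI0005006 to MI0005068 and 19 from MI0005451 to MI0005469. The files do not pair identifiers with miRNA names or sequences, so members are called by identifier and no sequence is shown. Their working label calls them mostly conserved, which was not tested here because it needs names or sequences.

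Small RNA was sequenced from needle biopsies of 4 Angus-cross yearling steers before concentrate feeding (d 0) and after 92 and 124 d on concentrates, for a total of 12 libraries with 4 at each time. The same 4 steers, all by 1 sire and numbered 1 to 4 here, were sampled at every time, so the replicates of a time are separate animals. They had been picked for sequencing because their intramuscular fat at d 92 and d 124 was closest to the mean of the steers in the trial. All steers were moved through step-up rations to a diet mostly of rolled corn, d 0 is the sample taken as that feeding began, and no group stayed off concentrates. Biopsy sites were the left 11th rib at d 0, the right 11th rib at d 92 and the left 12th rib at d 124, so time, age, diet and biopsy site cannot be told apart.

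A miRNA is a short RNA, cut from a hairpin precursor, that guides a silencing complex to matching sites in messenger RNAs and lowers their translation or stability. An MI identifier of miRBase stands for a hairpin entry, and identifiers are given in order of registration. Several hairpins can yield the same mature miRNA, and miRNAs that were found early in a species were often those known from other mammals. In skeletal muscle a few abundant miRNAs make up much of the pool and take part in fibre formation and fibre type.

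The deposited values are log2 values normalized between libraries by the authors, less the median of the feature over its 12 values. A value is therefore a deviation, and a level (log2) is given here as the deviation plus the median where that median could be recovered, which was so for 104 of 106 members. A level of 0 is the floor of the table. The study's methods name quantile normalization and its results name TPM, a unit scaled by transcript length. The recovered values sum to between 1485013 and 1528492 per library, and whether they were divided by feature length before the quantile step is not stated. The study gives its total of raw reads and the minimum per sample, but no counts per library or per feature. The exact depth of each library and the counting error behind each value are therefore unknown. Of the miRNAs that mark the tissue, 1 of 7 muscle names on the list used, bta-miR-208b, is paired with an identifier in the sources used here, and its level was between 8.68 and 11.06 over the 12 libraries. In bulk tissue, fewer cells of a type and less RNA per cell cannot be told apart.

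The members were among the most abundant miRBase features of the muscle. Their median level was 11.70, with the middle range between 9.10 and 13.43, while the other miRBase features that vary had a median level of 3.47. A level over 10 was found for 68 of 104 members (65.4%) and for 10.8% of the other miRBase features. Of the 106 members, 101 (95.3%) were counted as above the floor in all 12 libraries. Members were chosen for having a value other than 0, and of the 325 other miRBase features that vary, 182 were above it. Of all 534 others listed, which include features that never vary, it was 34.1%. A feature without a recovered median was counted as at the floor at its lowest value, so its true place is unknown. Among the 420 miRBase features with a recovered median, members held 5 of the 10 highest median levels, 36 of the highest 50 and 67 of the highest 100. Ensembl features were not in this ranking. Of the summed linear values of the miRBase features with a recovered median, the members took between 64.7% and 69.3% in each library. Features without one, which include 2 members, were left out of the sums, so the share over all miRBase features is unknown.

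Within the members, level differed by stretch of identifiers. The first stretch had a median level of 12.90, the second of 10.58 and the third of 11.89. The second stretch held 7 of the 9 members with a level under 5. Among miRBase features with later identifiers, those of MI0009 and MI0010 had a median of 5.42 and those of MI0011 and later a median of 0.16.

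**Figure D1:**
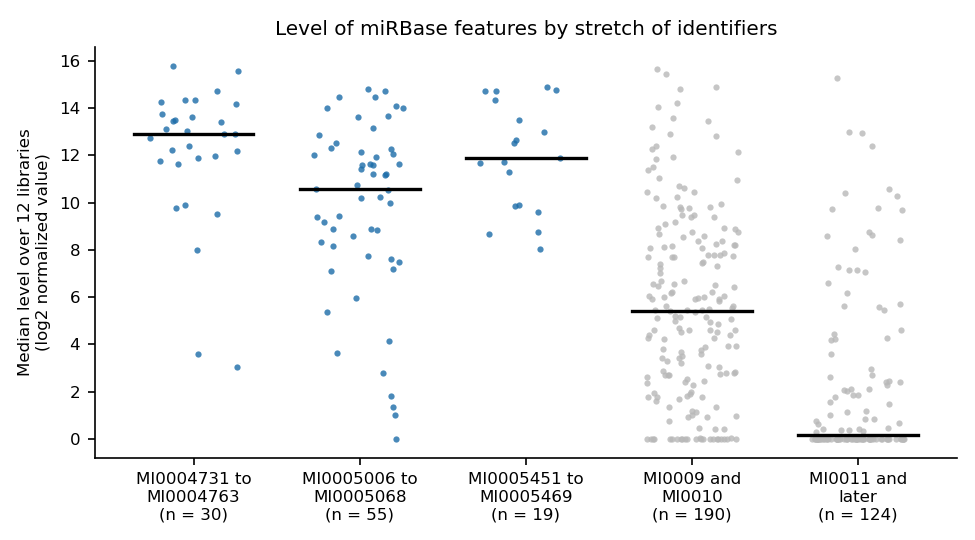
Median level (log2 normalized value, y axis) of each miRBase feature that varies and has a recovered median, by stretch of identifiers (x axis). Blue points are the members, grey points are later identifiers, and the bar is the median of each stretch, which is 12.90, 10.58 and 11.89 for the members and 5.42 and 0.16 for the later ones.

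Among the 104 members with a recovered level, the highest was MI0004754. MI0004731 and MI0005041 have no recovered level and could not be ranked. The levels of MI0004754 were 15.25, 15.37, 15.65 and 15.65 in steers 1 to 4 at d 0, 15.79, 15.79, 16.00 and 15.79 at d 92, and 15.79, 15.79, 15.79 and 15.25 at d 124. Equal values recur because quantile normalization gives every library the same set of levels, and a feature of the highest ranks can take only those of its neighbours in rank. MI0004756 came next, with levels between 15.04 and 16.19. At the other end, MI0005055 was at the floor in 9 of 12 libraries and was the 1 member left out of the tests. Its level was 1.06 in steer 2 at d 0, 3.58 in steer 4 at d 92 and 0.61 in steer 4 at d 124. MI0005038 had levels between the floor and 3.28, and MI0005037 between the floor and 5.34, so both reached the floor in some libraries.

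The order of the members by level was nearly the same in every library. Spearman's rho between libraries, taken across the 104 members, was between 0.965 and 0.994 over 66 pairs of libraries, as a description across genes that share the normalization. In each library 5 or 6 of the 10 highest features were members, in a ranking of all features with a recovered level, Ensembl features included. Over all libraries 13 members entered the highest 10 at least once, and 2 did so in every library.

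The spread between steers at one time was small for most members. The SD of the deviations from the time means, with the residual of 12 libraries and 3 times, had a median of 0.392 (log2) over the 105 members tested, against 0.519 over all 368 miRBase features tested. It was under 0.3 for 28 members and under 0.5 for 72. Of the 101 members above the floor in all libraries, MI0004753 had the smallest SD, 0.121, and MI0005457 the next, 0.126. MI0004731 and MI0005041 have no recovered level, so it is unknown whether they reached the floor. They were left out of the 101, and their SDs were 0.0094, the smallest of all members tested, and 0.294. The levels of MI0004753 were 14.56, 14.33, 14.71 and 14.64 in steers 1 to 4 at d 0, 14.64, 14.83, 14.69 and 14.71 at d 92, and 14.69, 14.71, 14.90 and 14.83 at d 124. The times overlapped in these values, and the lowest was the d 0 library of steer 2.

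The largest SD among these 101 members was that of MI0005027, 1.29, followed by MI0004759 with 1.25. The levels of MI0005027 were 3.67, 2.90, 0.79 and 3.54 in steers 1 to 4 at d 0, 2.55, 4.50, 2.90 and 0.93 at d 92, and 2.13, 1.56, 2.71 and 4.00 at d 124. No steer and no time was high or low throughout. Both members are of low level, where the spread was widest. The median SD of members was 1.01 at levels under 5, 0.453 between 5 and 8, 0.546 between 8 and 10, 0.452 between 10 and 12, 0.309 between 12 and 14 and 0.221 at 14 and above. The other tested features had medians of 0.823, 0.485, 0.461, 0.506, 0.375 and 0.257 in the same ranges. The SD did not fall at every step in either set, and at a like level the members were the more variable in some ranges and the less variable in others.

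**Figure D2:**
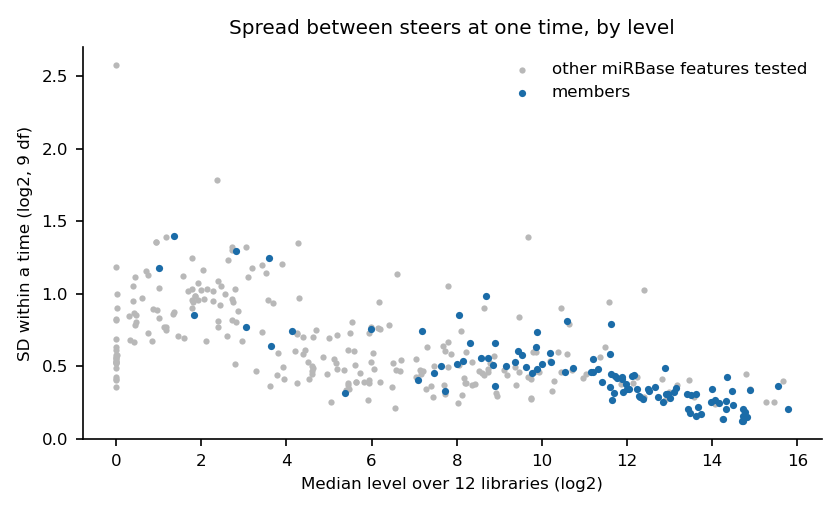
SD within a time (log2, y axis) against median level (log2, x axis) for the tested miRBase features with a recovered median. The members in blue lie mostly at high level and low SD, and in both the members and the other features in grey the SD is largest at low levels and smallest at the highest.

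The spread also differed between times. Over the 101 members above the floor in all libraries, the median SD between steers was 0.454 at d 0, 0.331 at d 92 and 0.305 at d 124. The SD was largest at d 0 in 60 of these members. The other tested features had medians of 0.583, 0.422 and 0.439, and d 0 was the largest in 54.9% of them, so d 0 was the widest time there too.

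Some members moved as near copies of each other. Of the 101 members, 24 had another miRBase feature whose deviations lay within 0.25 (log2) of their own in every library, 13 of them another member and 12 a later identifier. MI0004736 and MI0005456 differed by at most 0.034 in any library, at median levels of 12.92 and 12.97. MI0004734 and MI0005062 differed by at most 0.076, at 14.16 and 14.07. MI0005057, MI0005451 and MI0005452 formed a group of 3 that stayed within 0.131 of each other at levels between 14.71 and 14.81. Nearly equal levels beside nearly equal deviations were seen in most of these pairs, although MI0005006, at 11.40, followed MI0009789, at 8.23, within 0.234. No source used here says how the authors counted reads that match several hairpins, so it is unknown whether such members are separate measurements.

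Across the libraries the members varied together to a large part. The first principal component of their deviations from the time means took 39.2% of the variance of the 101 members and the second 18.4%. In the other 182 features above the floor in all libraries the first took 29.6%. With every feature scaled to the same variance, the first took 37.7% in the members and 32.9% in the others, a narrower gap. The loadings of 90 of 101 members on the first unscaled component had the same sign. It set the d 0 library of steer 4, where 84 of 101 members lay above their time mean (median deviation 0.379), against the d 0 library of steer 2, where 20 of 101 did (median deviation -0.357). The d 124 library of steer 1 and the d 0 library of steer 3 also had low scores on this component, with median deviations of -0.186 and -0.194. The other libraries of d 92 and d 124 had median deviations between -0.172 and 0.145.

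Other features moved in these libraries too. Against each feature's median over all 12 libraries, the members had a median deviation of 0.374 in the d 0 library of steer 4, the other 182 miRBase features one of 0.610, and 424 Ensembl small RNA features above the floor in all libraries one of -0.352. In the d 0 library of steer 2 the medians were -0.313 for members, -0.136 for other miRBase features and 0.098 for Ensembl features. The members and the Ensembl features lay on opposite sides of 0 in 11 of 12 libraries, and in the other one the median of the members was 0. Since quantile normalization gives every library the same set of levels, features that rise in rank are met by others that fall. Opposite signs are thus in part built into the values. Some of these medians were near 0, such as -0.011 and 0.012 in the d 92 library of steer 3. Blood cell miRNAs were measured by 2 of 8 names on the list used, and bta-miR-144 was at 9.95 in the d 0 library of steer 2, its lowest, and at 12.50 in that of steer 4. The level of bta-miR-142 was 9.85 and 12.66 in the same libraries. Both names had their highest level in the d 92 library of steer 2, at 14.51 and 13.40, where the members lay low (median deviation -0.196, with 32 of 101 above their time mean). The part of blood, or of the balance between the classes of small RNA, in the variation of the members was not tested. Centred on each library's median over the tested miRBase features, the members still had a first component of 26.4%.

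**Figure D3:**
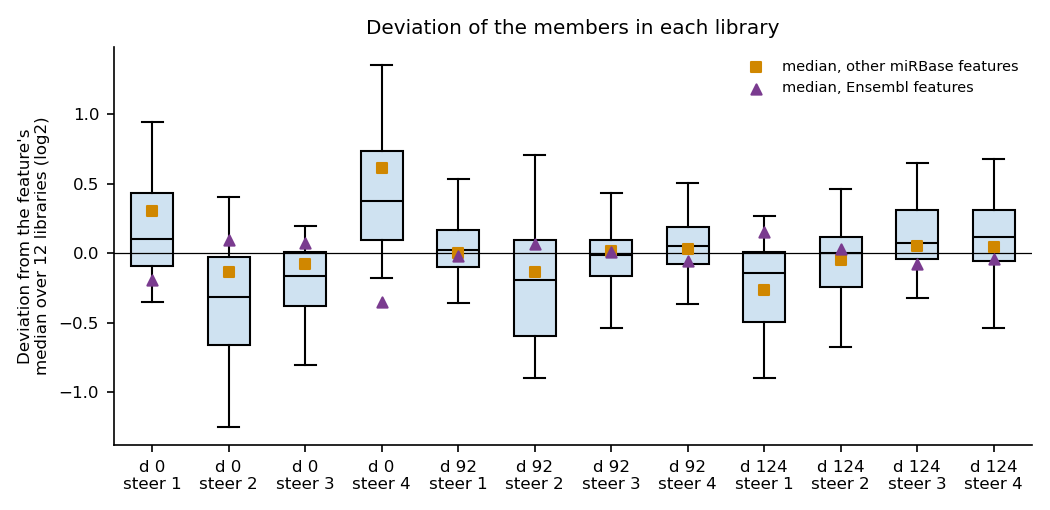
Deviation from each feature's median over 12 libraries (log2, y axis) in each library (x axis), as boxes over the 101 members above the floor in all libraries, with the line at the median, the box over the middle 50% and whiskers from the 5th to the 95th percentile. Squares are the medians of 182 other miRBase features and triangles those of 424 Ensembl features, which lie on the other side of 0 from the members' median in 11 of 12 libraries, with the widest gap in the d 0 library of steer 4.

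Pairs of members had a median Pearson correlation of 0.285 between their deviations from time means over the 12 libraries, and 31.0% of 5050 pairs were over 0.5. The other features had 22.4% over 0.5. These are descriptions, since all pairs share the same 12 libraries and their scaling. Beside the near copies, MI0004739 and MI0005050 had a correlation of 0.987 at levels of 12.88 and 11.19, and MI0004740 and MI0005047 one of 0.978 at 9.89 and 9.45. The levels of MI0004740 were 9.80, 8.66, 9.10 and 11.24 in steers 1 to 4 at d 0, 10.14, 10.81, 9.87 and 9.92 at d 92, and 9.80, 9.28, 10.08 and 10.18 at d 124. It was highest in the d 0 library of steer 4 and lowest in that of steer 2, and MI0005047 had its highest, 10.83, and lowest, 8.68, in the same libraries. Against this, MI0004739 and MI0005022, a member of low level (3.65), had a correlation of -0.852.

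Time-on-concentrates was compared for the question of which miRNAs change as steers fatten. At d 92 against d 0, most members differed little. The log2 difference had a median of -0.026 over the 105 members, against -0.091 over all 368 miRBase features tested, and 90 members (85.7%) changed by less than 1.3-fold, against 67.4% of all. At an unadjusted p under 0.05 with a change of 1.3-fold or more, the criterion of the study's methods applied to limma's values, 2 of 105 members passed, where 5.16% of all features tested did. Both were lower at d 92, a direction in which 3.80% of all features passed, and 0 were higher, where 1.36% of all passed. With Benjamini-Hochberg adjustment over the 368 features, limma called 0 of 105 members at an adjusted p under 0.05 (0.0% of all), with 0.755 as the lowest adjusted p of a member and 2 at an unadjusted p under 0.05.

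The members past the criterion at d 92 were MI0004763 and MI0005021. The levels of MI0004763 were 4.14, 2.90, 3.80 and 4.41 in steers 1 to 4 at d 0, 2.85, 2.20, 2.65 and 2.67 at d 92, and 1.91, 3.20, 4.58 and 3.82 at d 124. All d 92 values were under the lowest of d 0, while d 124 reached beyond both. In 4 of 4 steers it was lower at d 92, and the log2 difference was -1.22 (SE 0.51, adjusted p = 0.756 from limma), or 2.33-fold. The two-sided exact permutation test over the 4 against 4 libraries, which ignores the pairing by steer, gave p = 0.0286. That is the smallest p this unpaired test can give, and a paired exact test was not run. Its level is low, and with log2(value + 10) the difference was -0.61.

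MI0005021 had levels of 8.08, 8.19, 7.80 and 8.82 in steers 1 to 4 at d 0, 7.72, 7.14, 7.73 and 7.88 at d 92, and 7.25, 7.35, 7.53 and 7.03 at d 124. The d 0 and d 92 libraries overlapped between 7.80 and 7.88, and all d 124 libraries lay below all d 0 libraries. The mean at d 0 was 8.22 ± 0.43 (SD, n = 4). It was 7.62 ± 0.33 (SD, n = 4) after 92 d, and after 124 d it was 7.29 ± 0.21 (SD, n = 4). At d 92 each of the 4 steers had a lower value, by 1.52-fold in the mean, with a log2 difference of -0.60 (SE 0.25, adjusted p = 0.755 from limma, and p = 0.0571 in the two-sided exact permutation test). The d 0 library of steer 4 was its highest, and without it the difference was -0.41. In the 12 fits that left out 1 library, the unadjusted p at d 92 from limma was under 0.05 in 9 for MI0005021, reaching 0.133, and in 7 for MI0004763, reaching 0.0852.

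The groups of d 0 and d 92 did not overlap in 4 members, which are 3.81% of those tested, against 3.26% of all features (0.815% higher and 2.45% lower). Beside MI0004763 these were MI0005028 and MI0004755, both lower at d 92, and MI0004754, which was higher. MI0004754, the member of the highest recovered level, had a log2 difference of 0.36 (SE 0.24, adjusted p = 0.928 from limma). Among members higher at d 92 the smallest p was that of MI0005042, with levels of 14.46, 13.87, 14.33 and 14.16 in steers 1 to 4 at d 0, 14.75, 14.78, 14.38 and 14.51 at d 92, and 14.75, 14.69, 14.56 and 14.19 at d 124. It was higher in 4 of 4 steers at both later times, with d 0 and d 92 overlapping in 1 library each, and its log2 difference at d 92 was 0.40 (SE 0.21, adjusted p = 0.857 from limma). Over the members, 3 were higher and 4 lower in all 4 steers at d 92, which is 2.86% and 3.81% of members against 2.72% and 8.97% of all features tested.

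The count at d 92 rested on single libraries. In the fits that follow, members alone were counted, so the counts do not set members against all features. Without the d 92 library of steer 2, 0 members passed the criterion, and without the d 0 library of steer 1 or the d 92 library of steer 3 or 4, 1 did. Without the d 0 library of steer 4, in which members were high, 4 passed and all 4 were higher at d 92. Without both the d 0 libraries of steers 2 and 4, 2 passed, both lower. With each library centred on its median over the tested miRBase features, 5 passed, 3 of them higher, and the median difference of the members was 0.108, so the direction of a small difference depended on the scaling.

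At d 124 against d 0 the members had a median log2 difference of 0.004, against -0.066 over all features tested, and 86 (81.9%) changed by less than 1.3-fold, against 61.1% of all. Of 105 members, 2 passed the criterion, where 8.97% of all 368 features did. Both were lower, a direction with 7.61% of all features, and 0 were higher, where 1.36% of all passed. Limma called 0 members at an adjusted p under 0.05 (0.0% of all), with 0.283 as the lowest adjusted p of a member and 2 at an unadjusted p under 0.05. The difference from d 0 did not reach 2-fold in any member. In all 4 steers, 3 members were higher and 7 lower at d 124, which is 2.86% and 6.67% of members against 1.63% and 10.3% of all features tested.

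The member of the smallest p was MI0005021 again, in a comparison that shares its d 0 libraries with the first. All 4 steers had a lower value at d 124, by 1.91-fold in the mean, with a log2 difference of -0.94 (SE 0.25, adjusted p = 0.283 from limma, and p = 0.0286 in the two-sided exact permutation test). Its groups were the 1 pair that did not overlap at d 124 among members (0.952%, against 2.72% of all features). In limma its unadjusted p was under 0.05 in all 12 fits that left out 1 library, between 0.00136 and 0.0125. Without both d 0 libraries of steers 2 and 4 the difference was -0.65 with an unadjusted p of 0.0909.

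MI0005028 was the other member past the criterion at d 124. Its levels were 5.89, 5.46, 5.93 and 6.44 in steers 1 to 4 at d 0, 5.28, 5.35, 5.36 and 5.39 at d 92, and 4.95, 5.17, 5.77 and 5.01 at d 124. The d 92 libraries lay close together and below all of d 0, and at d 124 only steer 3 reached into the range of d 0. The log2 difference at d 124 was -0.70 (SE 0.28, adjusted p = 0.496 from limma, and p = 0.0571 in the two-sided exact permutation test), which is 1.63-fold lower. Its unadjusted p was under 0.05 in 9 of the 12 fits that left out 1 library.

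Without the d 0 library of steer 4, 6 members passed at d 124, 3 of them higher, and without that of steer 1 or steer 2, 4 did. Without the d 124 library of steer 1 or of steer 2, 1 member passed, and with each library centred on its median 9 did, 7 of them higher, with a median difference of 0.141. With log2(value + 10), 4 passed. The share of all features that passed was not counted in these fits.

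**Figure D4:**
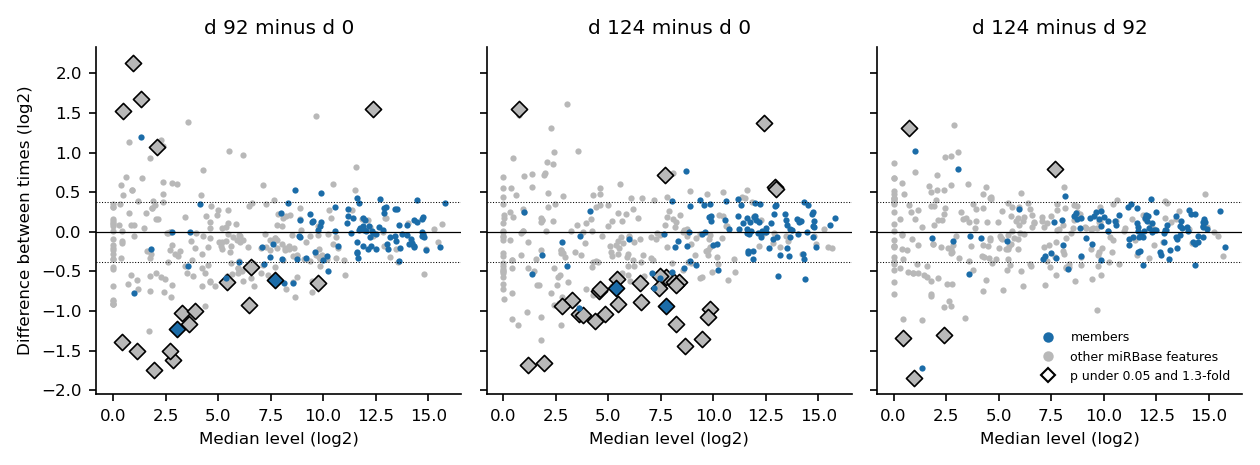
Difference between times (log2, y axis) against median level (log2, x axis) for the tested miRBase features with a recovered median, 103 members in blue and 254 others in grey, in the 3 comparisons. Diamonds mark an unadjusted p under 0.05 with at least 1.3-fold, and dotted lines are at 1.3-fold. Most members lie between the dotted lines, and 2, 2 and 0 members carry a diamond, all below 0.

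At d 124 against d 92 the members differed least. The median log2 difference was 0.022, 96 of 105 members (91.4%) changed by less than 1.3-fold, against 72.6% of all features, and 0 members passed the criterion, where 1.36% of all did (0.543% higher and 0.815% lower). Limma called 0 at an adjusted p under 0.05 (0.0% of all features), 0 at an unadjusted p under 0.05, with 0.974 as the lowest adjusted p. Without the d 0 library of steer 1, the d 92 library of steer 2 or 3, or the d 124 library of steer 1, 1 member passed, with no share over all features counted. In limma's F-test over the 3 times, 1 of 105 members, MI0005021, had an unadjusted p under 0.05, where 4.89% of all features did, and 0 had an adjusted p under 0.05 (its adjusted p = 0.522). Without both d 0 libraries of steers 2 and 4, 0 had an unadjusted p under 0.05.

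Steer and time were set side by side as parts of the variance of the members. The median share of a member's variance was 11.03% for time, 32.3% for steer and 51.9% for the rest. With no effect of either, the expected mean share is 18.2% for time and 27.3% for steer. An expected mean is not an expected median, so these are not directly comparable with the median shares. The share of steer was above that of time in 84 of 105 members (80.0%) and in 72.3% of all features tested, whose median shares were 13.3% for time and 31.4% for steer. Steer has more degrees of freedom than time, so a larger share is expected for it with no effect. In a fit with time and steer, 6 of 105 members differed between steers at an unadjusted p under 0.05, where 9.51% of all features did. Limma with Benjamini-Hochberg adjustment called 0 members at an adjusted p under 0.05, where 1.09% of all features were called.

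The members of the smallest p between steers were MI0005462 (adjusted p = 0.133), MI0005035 (adjusted p = 0.180) and MI0005025 (adjusted p = 0.396, all from limma). The levels of MI0005462 in steers 1 to 4 were 9.48, 7.003, 8.05 and 8.80 at d 0, 9.98, 7.73, 8.22 and 9.52 at d 92, and 10.24, 9.15, 8.56 and 8.48 at d 124. Steer 1 was the highest at every time, and at d 124 the order of the other 3 was the reverse of that at d 0. MI0005035 had levels of 8.71, 9.84 and 8.81 at d 0, d 92 and d 124 in steer 4, the highest at each time, while the other steers lay between 7.62 and 8.49. MI0005025 was between 10.38 and 11.56 in steer 4 and between 9.62 and 10.60 in the others, and steer 4 was the highest at each time.

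The adjusted p of MI0005462 depended on the fit. It was 0.133 as reported, and with log2(value + 10), with the trend of the spread fitted on the recovered level, or without steer 4 it was 0.026, 0.0037 and 0.047, each below 0.05. The count of members at an unadjusted p under 0.05 was 11 and 13 with the first and second of these, and 1 without steer 4. The share over all features was not counted in these fits.

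**Figure D5:**
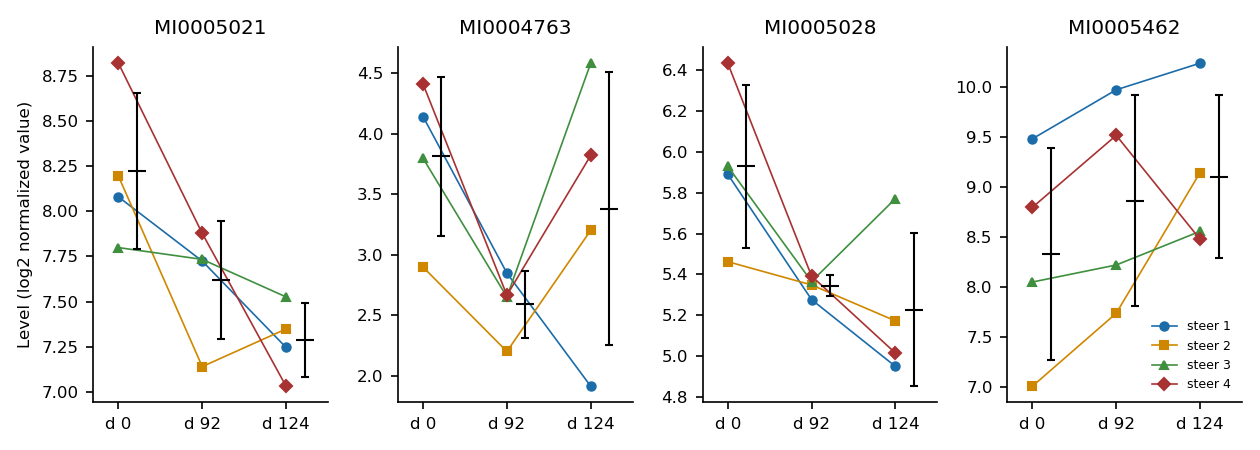
Level (log2 normalized value, y axis) at d 0, d 92 and d 124 (x axis) of the 3 members past the criterion in a time comparison and of MI0005462, with 1 line per steer. The bar beside each time is the mean with its SD (n = 4). All 4 lines of MI0005021 and MI0005028 are lower at d 92 and d 124 than at d 0, those of MI0004763 are lower at d 92 and spread again at d 124, and steer 1 is the highest in MI0005462 at each time.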

How the data were processed

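Small RNA of 12 biopsies was sequenced by the authors, aligned to bosTau4 and normalized with the Quantile algorithm of StrandNGS. The authors deposited log2 values (base 2 is assumed here), in which normalized values under 1 had become 1 and the median of each feature was subtracted. Sample titles give d 92, and some sample codes give d 90 for the same samples. The table has no counts, so depth is unknown.

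The subtracted medians were recovered from the levels shared between libraries by quantile normalization, within a tolerance of 3e-06, for 1297 of 1314 features that vary. For each of the 104 members with a recovered median every distinct value matched a shared level, at least 4 per member, while no other median matched more than 3. On simulated data the median was recovered for 1310 of 1349 features that vary, and all 1310 were right. These data were simulated with quantile normalization and subtracted medians, so they cannot show whether the deposited values were made that way. Differences do not depend on the medians.

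Differences were fitted with limma 3.58.1 (R 4.3.3, trend and robust) over 12 libraries with time as the only term, on the 368 miRBase features with 4 or more libraries above the floor, with Benjamini-Hochberg adjustment. On simulated data for d 92 against d 0, with 20 of 368 features changed, 6.5% of changes of 1 (log2) and 65% of changes of 2 were called at an adjusted p under 0.05. The simulated features had the SDs of all 368 features and varied independently of each other, so these are not rates for the members. Exact permutation tests of single features were two-sided and did not pair the libraries of a steer. Python 3.11.15 was used with numpy 2.4.6 and pandas 2.3.3, and matplotlib 3.10.9 drew the plots.

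Same-numbered replicates come from 1 steer, as the sample codes show. Over all tested features, deviations of same-steer libraries had correlations between -0.05 and 0.44 (median 0.116, 12 pairs). Over the members they were between -0.54 and 0.36 (median 0.045), against -0.56 to 0.44 (median -0.056) for different steers, so the pairing rests on the animals and not on these values. The study's analysis of variance has no steer term, so the fit without it is reported.

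The members and lists were chosen with earlier results of these data known. The rule for named members takes those of smallest p, highest and lowest level, smallest and largest SD and highest correlation, 40 in all. Since no source used here pairs their identifiers with names or sequences, fewer are named. MI0004754 and MI0004755 at d 92, MI0005006, MI0009789 and MI0005022 were named after their values were seen. Of 31 marker names listed, 4 are paired with an identifier, and bta-miR-122, the liver name among them, had levels between 8.01 and 13.36. Names of endothelium, fibroblasts, epithelium and brain were not analysed here.

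The alternatives were another spread model, other filters, a pseudocount of 10, centred libraries, a steer term and leaving out each library. The trend on the recovered level, the fit without 2 libraries of d 0 and the fit with 1 member of each near-identical group were added after the data were seen.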

Additional observations from a re-analysis of the deposited data

Results flagged for a closer look

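In 69 groups of 4 libraries, of the members named in the text, Dixon's test set 1 library apart from the other 3 in 8, where 3.45 are expected by chance. In 6 of the 8 groups the other 3 libraries are tied, so any gap is the whole range.

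MI0004754 was at 16.0034 in steer 3 at d 92 and at 15.2532 in steer 4 at d 124, while the other 3 libraries of each time were tied at 15.7908. MI0005055 was at 1.0614 in steer 2 at d 0, at 3.5831 in steer 4 at d 92 and at 0.6098 in steer 4 at d 124, with the other 3 libraries of each time at the floor.

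MI0004734 was at 14.7148 in the d 0 library of steer 4, with the others tied at 14.0345. Its near copy MI0005062 was at 14.6933 there, with the others between 13.93 and 13.97, and counts as the same observation. MI0004736 was at 12.8203 in steer 4 at d 92, against 12.99 to 13.01 in the others.

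Over 303 groups of the 101 members above the floor in all libraries, 18 had a library set apart, where 15.2 are expected by chance, 6 of them the d 92 library of steer 2 and 3 the d 0 library of steer 4.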

How the results depend on the processing

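At an adjusted p under 0.05, 0 members were called at d 92, at d 124, at d 124 against d 92 and over the 3 times under every alternative run. Of the counts at an unadjusted p, centred libraries gave 5 at d 92, 9 at d 124 and 3 over the 3 times, against 2, 2 and 1 as reported. With log2(value + 10) there were 4 at d 124, and between steers 11 and, adjusted, 1. With the trend on the recovered level there were 1 at d 124 against d 92, and between steers 13 and, adjusted, 1. Over the 3 times, 2 passed without trend and robust estimation, 2 without a filter and 0 without 2 libraries of d 0. With 1 member of each near-identical group the counts were 2 at d 92, 2 at d 124 and 6 between steers, as reported. Leaving out 1 library gave 0 to 4 members at d 92, 1 to 6 at d 124, 0 to 1 at d 124 against d 92 and 1 to 3 over the 3 times. Leaving out 1 steer gave 1 to 5 between steers and, adjusted, 0 to 1. The share of the first component was 26.4% with centred libraries, 42.9% with log2(value + 10) and 33.4% to 45.1% without 1 library. The median SD stayed between 0.358 and 0.410 and the median level between 11.67 and 11.73 without 1 library. The difference of MI0004763 at d 124, -0.43 as reported, lay between -0.83 and 0.057 without 1 library, and was above 0 without the d 124 library of steer 1. The cause of these changes was not tested. Counts under the alternatives were taken for members only, so they do not show whether members differed from all features.

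With the replicate block, which pairs the libraries of a steer, 3 members passed at d 92, 3 at d 124, 0 at d 124 against d 92 and 1 over the 3 times, with 0 at an adjusted p under 0.05, so the block changed no count by more than 1.5 times. The SD was 0.378 with it, and the first component took 41.8%. The share of all features that passed was not counted in this fit either, so its counts do not set members against all features.

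Unknown depth limits what can be said of members of low level, and in simulated data at d 92 against d 0, the adjusted p was under 0.05 for 6.5% of the 2-fold changes put in.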
